A study of Drosophila melanogaster with 2 samples.

Results

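The genes described here are the Jonah proteases, the clustered trypsins and a few related serine protease genes of Drosophila melanogaster, picked out by a rule on gene symbols: every symbol that begins with Jon, every symbol made of a Greek letter name from alpha to lambda and Try, and yip7, Ser6, Ser8, Ser12, Send1 and Send2. The rule took 31 genes, of which 29 were each read by a probe set that names no other gene, out of 10844 such genes on the array. The other 2, Jon99Cii and Jon99Ciii, were read together by 3 probe sets that name both. By family, 17 of the 31 genes were Jonah genes with yip7, 9 were trypsins and 5 were Ser or Send genes. The trypsin genes gammaTry and deltaTry fit the rule but were named by no probe set used here.

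Digestive serine proteases cut dietary proteins in the gut lumen. Trypsins cut after lysine or arginine, and chymotrypsin-like and elastase-like enzymes cut after other residues. In Drosophila the Jonah genes and the clustered trypsin genes encode such enzymes and are known chiefly from the midgut of the feeding larva. The embryo does not feed, and the midgut becomes ready for digestion towards hatching.

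Each of 2 arrays measured 1 genotype, either a yw stock (named for the body colour gene yellow and the eye colour gene white) or homozygous tdf mutants. The transcription factor gene tdf is also called apontic (apt). Both collections were kept for 16 h after laying at 25 °C, whole embryos were extracted, and homozygotes were told from their siblings by the GFP-marked CyO balancer that the homozygotes lack. The sources used here state neither the tdf allele, nor how long eggs were collected, nor how many embryos went into an extract. The yw embryos come from a stock of their own, so stock background and any difference in embryo age cannot be told apart from the mutation. With 1 array per genotype there is no replicate error and no test, and each value below is a single measurement. In whole embryos, fewer gut cells and less RNA per cell cannot be told apart.

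Values are MAS5 signals, given with the yw array first and the array labelled tdf second. A MAS5 signal is a linear intensity, and it compares a probe set with itself on the other array and not with other probe sets. A signal below the floor of 97.3, the 40th percentile of all gene probe sets, was raised to it before the log2 ratio (array labelled tdf over yw array) was taken. A gene counted as measured when its higher signal reached the floor, and "at least" marks a ratio with 1 signal below it. Of the 10844 genes 7639 were measured, with a median log2 ratio of 0.03. Probe sets of the same gene, over 278 genes with more than 1 above the floor on both arrays, differed in log2 ratio by an SD of 0.53, or 1.45-fold. That SD is a spread between probe sets on the same arrays. It holds neither variation between embryos nor any error that the probe sets of a gene share, such as that of an extract or array.

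The signal of apt came to 979 and 1051, so it was not lower there, and whether its probe set lies in the lesion is not given. The median log2 ratio of the 6 poly(A) spike controls above the floor was -0.91, and that of the 9 hybridisation controls was -0.07. The ratio of 3′ to 5′ signal was 14.9 (yw) and 32.2 (array labelled tdf) for 18S rRNA, 32.7 and 52.3 for actin, 45.5 and 56.6 for eIF-4a, and 22.8 and 17.3 for GAPDH, and 3 of these 4 transcripts had the larger ratio on the second array. The part of these differences in the protease ratios was not tested.

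Of the 29 proteases read alone, 20 were measured, and they went both ways. At least 2-fold lower on the array labelled tdf were 4, namely Jon99Fi, Jon25Biii, Jon99Fii and epsilonTry. At least 2-fold higher were 4 others, namely yip7, Jon65Aiv, zetaTry and kappaTry. Among all measured genes, 6.19% were at least 2-fold lower and 3.60% at least 2-fold higher, against 20% and 20% of the 20 proteases. The set was chosen with earlier results of these data known, so these shares describe it and are no independent evidence. All 8 genes exceeded the floor on each array, where they made up 8 of 17 proteases, against 8.82% of the 6508 genes that did so. Over the 20, the median log2 ratio was 0.39, but the SD was 1.30, against 0.62 over all measured genes.

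**Figure D1:**
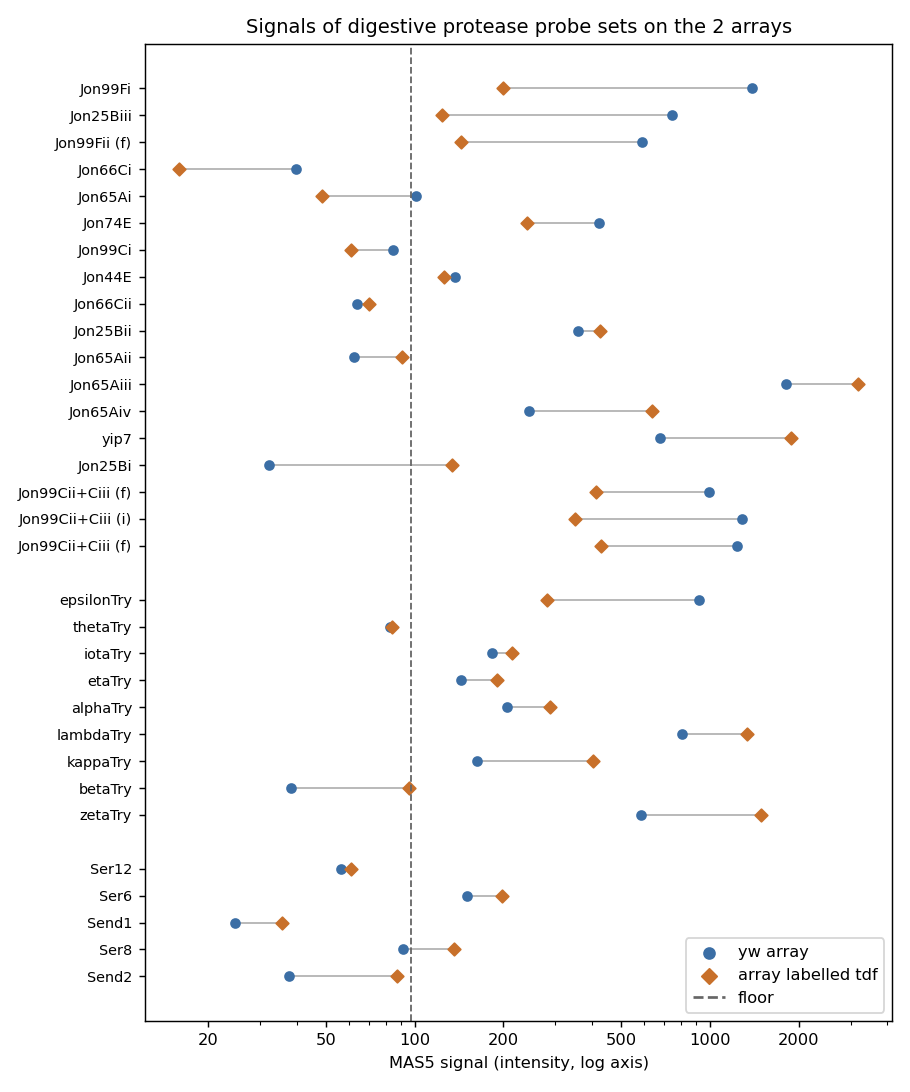
MAS5 signal (log axis) of each protease probe set on the yw array (blue circles) and the array labelled tdf (orange diamonds), 1 value per array, with the floor of 97.3 as a dashed line and suffix letters f and i in brackets. Genes are ordered within each family by unfloored ratio, followed by the 3 shared probe sets of Jon99Cii and Jon99Ciii; the lower genes are at the top of each family and the higher ones, such as yip7 (680 and 1880) and zetaTry (584 and 1493), at the bottom.

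The lowest ratios of the family were those of Jonah genes of the Jon99 and Jon25B loci, which encode serine proteases. Jon99Fi had signals of 1385 (yw) and 199 (array labelled tdf), which is 6.98-fold lower (log2 ratio -2.80), and 0.170% of the measured genes had a ratio as low or lower. Its neighbour Jon99Fii had 591 and 143, 4.12-fold lower (log2 ratio -2.04). Both genes of the Jon99F pair were thus lower, though the probe set of Jon99Fii carries the suffix letter f, which marks probes shared within a gene family, so that its signal may hold RNA of related genes such as Jon99Fi.

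Jon99Cii and Jon99Ciii, a pair of adjacent Jonah genes, could not be read apart. Their first shared probe set had signals of 995 and 411 (log2 ratio -1.28). The second had 1285 and 349 (-1.88), and the third 1240 and 429 (-1.53). All 3 were more than 2-fold lower, with a mean log2 ratio of -1.56 and an SD of 0.30 between the probe sets, which read the same 2 extracts and may share probes. Counted as 1 further protease, the pair makes 5 at least 2-fold lower. The third gene of that locus, Jon99Ci, was below the floor on both arrays (84.3 and 60.9), so the lower signal of the Jon99C genes is known for the pair alone.

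Jon25Biii had signals of 746 and 124, which is 6.0-fold lower (log2 ratio -2.59). The genes beside it did not share this. Jon25Bii, next in order, had 358 and 425, a log2 ratio of 0.25. Jon25Bi had 32.2, below the floor, and 134, at least 1.38-fold higher (log2 ratio at least 0.46). The 3 genes of the Jon25B cluster therefore spanned ratios from 6.0-fold lower to at least 1.38-fold higher on the same pair of arrays.

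In the Jon65A cluster the direction was the opposite. The Jonah-like gene yip7, named for the interaction of its product with the protein Yippee, had signals of 680 and 1880, which is 2.77-fold higher (log2 ratio 1.47). Jon65Aiv had 245 and 637, 2.61-fold higher (log2 ratio 1.38). Jon65Aiii had 1817 and 3191, 1.76-fold higher (log2 ratio 0.81), under the 2-fold limit. These 3 genes lie next to each other but for CG6462, which was below the floor on both arrays (49.9 and 32.3). At the other end of the cluster, Jon65Aii was below the floor (62.3 and 90.4) and Jon65Ai stood at 101 and 48.6, a bound of at least 1.04-fold lower (log2 ratio -0.05 or lower) that says little with the yw signal so near the floor.

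The remaining Jonah genes were single or dim. Jon74E had signals of 422 and 240, which is 1.76-fold lower (log2 ratio -0.81). Jon44E had 137 and 126, a log2 ratio of -0.13. The pair Jon66Ci (39.8 and 15.9) and Jon66Cii (63.6 and 70.4) stayed below the floor. Of the 11 measured Jonah genes with yip7, 3 were past the limit downwards and 2 upwards, with a median log2 ratio of -0.05. That median turned to 0.10 when probe sets with a suffix letter, here that of Jon99Fii, were left out. It was 0.01 with the floor at the 25th percentile and -0.28 with the floor at the 60th percentile, which left 8 of these genes measured.

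The trypsins form a single cluster in gene order, and all but 1 of the 7 measured had a ratio above 0. The 3 that open the cluster were the highest. The first, lambdaTry, had signals of 804 and 1334, which is 1.66-fold higher (log2 ratio 0.73). The second, kappaTry, had 163 and 403, 2.47-fold higher (log2 ratio 1.31), and the third, zetaTry, had 584 and 1493, 2.56-fold higher (log2 ratio 1.35). With a floor at the 60th percentile (a signal of 237) kappaTry was at least 1.70-fold higher (log2 ratio at least 0.76) and no longer past the 2-fold limit.

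Among the other trypsins, 3 had smaller ratios above 0. Next in order after zetaTry, etaTry had signals of 144 and 190 (log2 ratio 0.40). The gene alphaTry had 206 and 288 (log2 ratio 0.48), and iotaTry, at the far end of the cluster, had 183 and 214 (log2 ratio 0.23). These 3 ratios were within the SD of 0.53 between probe sets of the same gene.

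The gene epsilonTry, which follows alphaTry directly in gene order, stood apart with signals of 916 and 282, which is 3.26-fold lower (log2 ratio -1.70). As few as 1.30% of the measured genes had a ratio as low or lower. Its neighbour on the other side, betaTry, was below the floor on both arrays (38.2 and 95.5), as was thetaTry (82.6 and 83.6). The trypsin genes alphaTry, betaTry, gammaTry, deltaTry and epsilonTry are closely related copies, and whether their probe sets also take up RNA of the other copies was not tested. The log2 ratios of alphaTry and epsilonTry, 0.48 and -1.70, lay further apart than the SD of 0.53 between probe sets of the same gene.

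**Figure D2:**
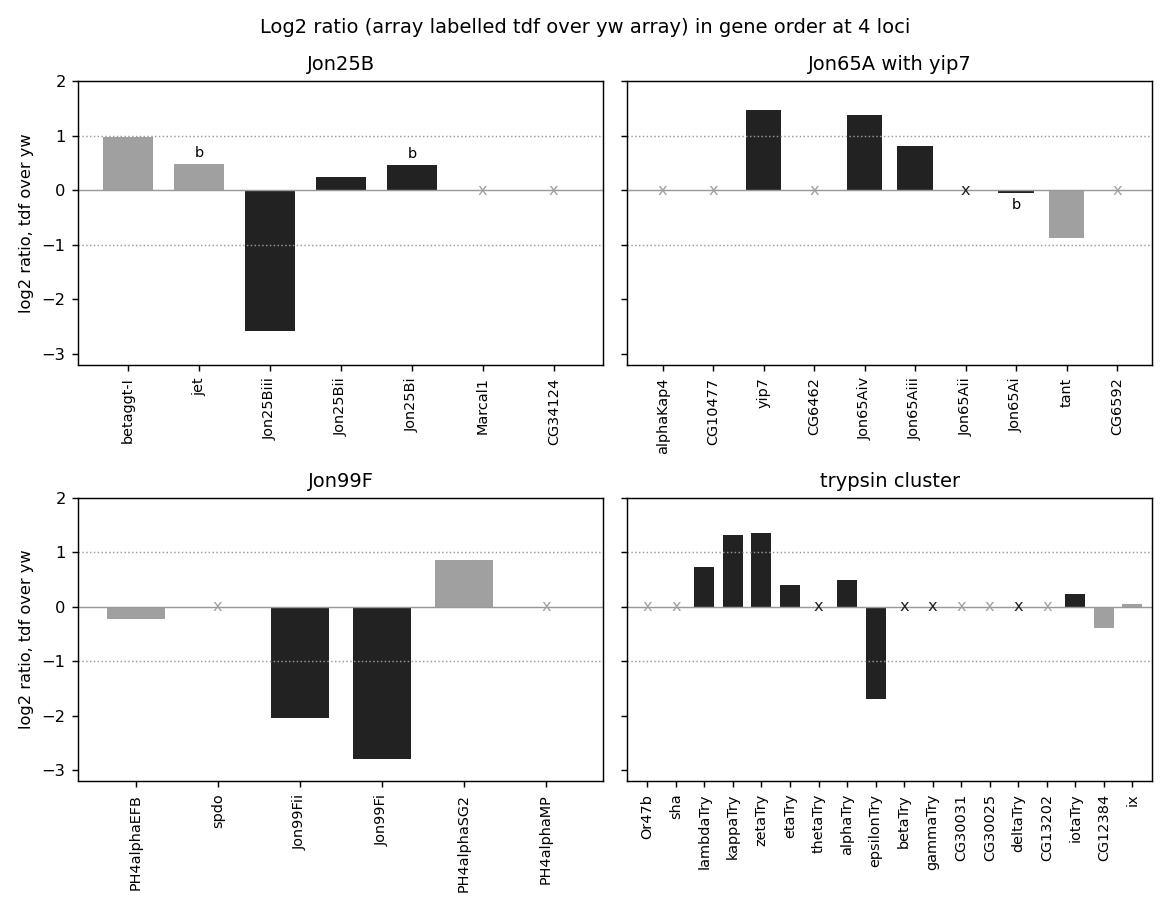
Log2 ratio (array labelled tdf over yw array) in gene order, without distances, for the Jon25B, Jon65A, Jon99F and trypsin loci, with 2 flanking protein-coding genes on each side. Black bars are the proteases described here and grey bars other genes. An x marks a gene below the floor on both arrays or named alone by no probe set, and b a bound. Dotted lines mark the 2-fold limit. Jon25Biii (-2.59) goes down beside neighbours that do not. Beside epsilonTry (-1.70), alphaTry does not go down and betaTry was below the floor.

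The Ser and Send genes gave little signal. Ser6, a serine protease gene, had signals of 151 and 198, which is 1.31-fold higher (log2 ratio 0.39). Ser8 had 91.4, below the floor, and 136, at least 1.40-fold higher (log2 ratio at least 0.48). Neither reached the 2-fold limit, and Ser12 (56.5 and 60.7) was below the floor. Send1 (24.7 and 35.6) and Send2 (37.4 and 86.9), endopeptidases named for the spermatheca, the sperm storage organ of the adult female, were also below the floor on both arrays. In all, 9 of the 29 proteases were below it, with signals from 15.9 to 95.5, so that no difference could be read for them with that floor. With the floor at the 25th percentile (a signal of 43.8), betaTry was at least 2.18-fold higher. Its signal of 95.5 on the array labelled tdf lay within the range there (71.2 to 223) of probe sets for yeast transcripts, which have no fly target.

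**Figure D3:**
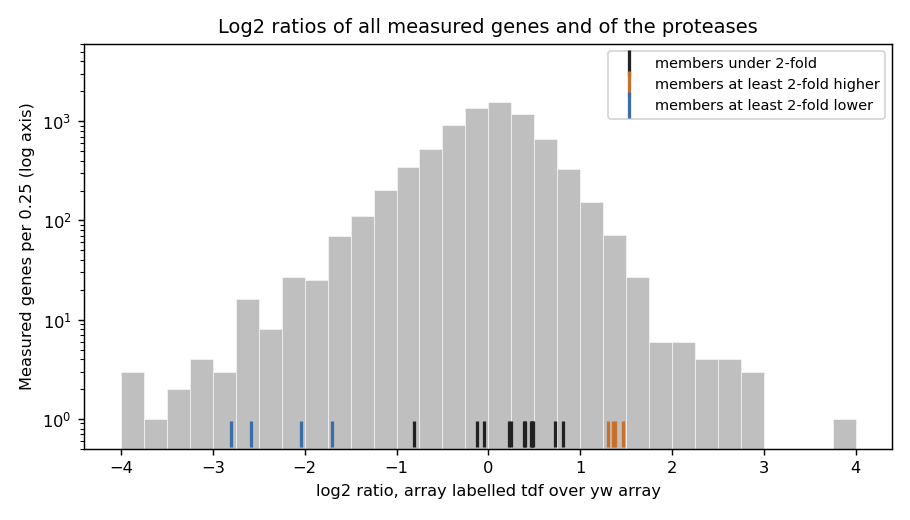
Number of measured genes (log axis) per 0.25 of log2 ratio, array labelled tdf over yw array, for all 7639 measured genes, with the 20 measured proteases as ticks. The 4 lower proteases (blue) lie between -2.80 and -1.70, the 4 higher ones (orange) between 1.31 and 1.47, and the 12 under 2-fold (black) between.

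The 8 proteases were picked by the 2-fold limit, so their place towards the ends of the distribution of all measured genes follows from that limit. The 4 lower genes had ratios that 0.170% (Jon99Fi), 0.340% (Jon25Biii), 0.759% (Jon99Fii) and 1.30% (epsilonTry) of the measured genes matched or went below. The 4 higher genes had ratios that 0.746% (yip7), 1.02% (Jon65Aiv), 1.20% (zetaTry) and 1.40% (kappaTry) of the measured genes matched or exceeded. With the limit at 3-fold, all 4 lower genes stayed past it and none of the higher ones did. Of the 7639 measured genes, 136 were that much lower and 35 that much higher.

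Dim signals on the array labelled tdf carry an added uncertainty. The 4 probe sets for yeast transcripts, controls without a fly target, had signals from 5.37 to 64.2 (yw) and from 71.2 to 223 (array labelled tdf). Whether such background added to dim protease signals was not tested. Of the 20 measured proteases, 10 had a signal on that array no higher than 223, Jon99Fi, Jon25Biii and Jon99Fii among them. The others were Jon44E and Jon65Ai, with ratios below 0, and Jon25Bi, etaTry, iotaTry, Ser6 and Ser8, with ratios above 0. With the floor at 237, above all of these controls, Jon99Fi was still at least 5.84-fold lower, Jon25Biii at least 3.14-fold and Jon99Fii at least 2.49-fold. With that floor Jon44E, Jon65Ai, Jon25Bi, etaTry, iotaTry, Ser6 and Ser8 were no longer measured, and alphaTry was at least 1.21-fold higher.

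The genes that flank the proteases were looked at for comparison. They were taken by gene order alone, and whether any of them also encodes a protease was not examined. Among 50 protein-coding genes that lie between the proteases or within 2 genes of a locus, 21 were measured, with a median log2 ratio of 0.04, and 1 passed the limit in each direction. The higher one was CG1304, beside Ser6, with 10.7 and 289 (at least 2.97-fold), and the lower one was mTTF, a mitochondrial transcription termination factor gene beside Send2, with 787 and 382 (2.06-fold). Both were named after their values were seen. Beside the Jon99F pair, where both Jonah genes were lower, the prolyl hydroxylase gene PH4alphaSG2 had 508 and 922 (log2 ratio 0.86). Next to Jon25Biii, the flanking gene jet had 91.3 and 136 (log2 ratio at least 0.48).

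Other enzymes of digestion included maltases, lipases and lysozymes. Of 26 listed, 17 were measured, and 4 of them passed the limit upwards and 1 downwards, with a median log2 ratio of 0.30, or 0.75 over the 13 genes left with plain probe sets only. Maltases, which cut disaccharides, made up 3 of the higher genes. Mal-A4 had signals of 224 and 677 (3.03-fold), Mal-B1 98 and 290 (2.96-fold) and Mal-A2 116 and 312 (2.68-fold). The gut lipase gene mag, named after its values were seen, had 129 and 268 (2.07-fold, but 1.99-fold under loess). With the floor at 237, Mal-A4 alone of these 4 stayed at least 2-fold higher. The lower gene was cathD, which encodes the lysosomal aspartic protease cathepsin D, with 3896 and 786 (4.96-fold lower).

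Genes of the gut lining and of gut development followed. Of 12 measured lining and midgut genes 1 was at least 2-fold higher, Peritrophin-A, a chitin-binding protein of the matrix that lines the gut (1001 and 2220, 2.22-fold), and none was that much lower. The midgut gene mex1 had 1097 and 1654 (log2 ratio 0.59), Ssk, a component of the septate junctions of gut epithelia, 4099 and 6035 (0.56), and the metallothionein gene MtnA 18524 and 24438 (0.40). The signal summed over that list, genes below the floor included, was 68440 (yw) and 79382 (array labelled tdf). None of the 18 measured gut regulators reached the 2-fold limit, with a median log2 ratio of 0.15, but with the floor at 43.8 2 of 22 did so upwards, byn (2.24-fold) and fkh (at least 2.19-fold, named after its values were seen). Among them were the GATA factor srp, which specifies endoderm (115 and 205, log2 ratio 0.83), and opa (at least 0.78). From the hindgut, they included drm (at least 0.78), byn (at least 0.68) and cad (1859 and 1369, -0.44). With the floor at 237, srp, opa, drm and byn were no longer measured. The signals of byn (156) and fkh (96.1) on the array labelled tdf lay within the range of the yeast controls there (71.2 to 223). A second, dimmer probe set of cad had 132 and 159 (log2 ratio 0.27). The midgut GATA factor gene GATAe, one of these 18 and named after its values were seen, had 973 and 953 (log2 ratio -0.03, but 0.04 under quantile normalisation).

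Serine proteases with other roles, such as immunity and patterning, were listed as well. Of 13 measured, none passed the limit upwards and 2 did so downwards, with a median log2 ratio of 0.04 that turned to -0.01 under loess and to -0.49 with the floor at 237. One was snk, a protease of the dorsal-ventral cascade of the early embryo (393 and 180, 2.18-fold lower, but at least 1.65-fold with the floor at 237), and the other was teq, a mosaic serine protease (3905 and 1333, 2.93-fold lower), although a second probe set of teq above the floor had 1117 and 1332 (log2 ratio 0.25) and the mean over its probe sets was 1.89-fold lower. The dorsal-ventral protease gene ea had 399 and 221 (log2 ratio -0.85), and SPE, which processes the Toll ligand Spätzle, 665 and 371 (-0.84). Try29F, a trypsin gene outside the rule and named after its values were seen, had 3947 and 4928 (0.32). Of 16 measured serpins, inhibitors of serine proteases, none reached the 2-fold limit and the median was -0.03. The largest ratios were those of Spn77Ba (0.78), Spn31A (0.77), nec (-0.76) and Spn27A (-0.49), and Spn43Aa had 5402 and 5240.

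**Figure D4:**
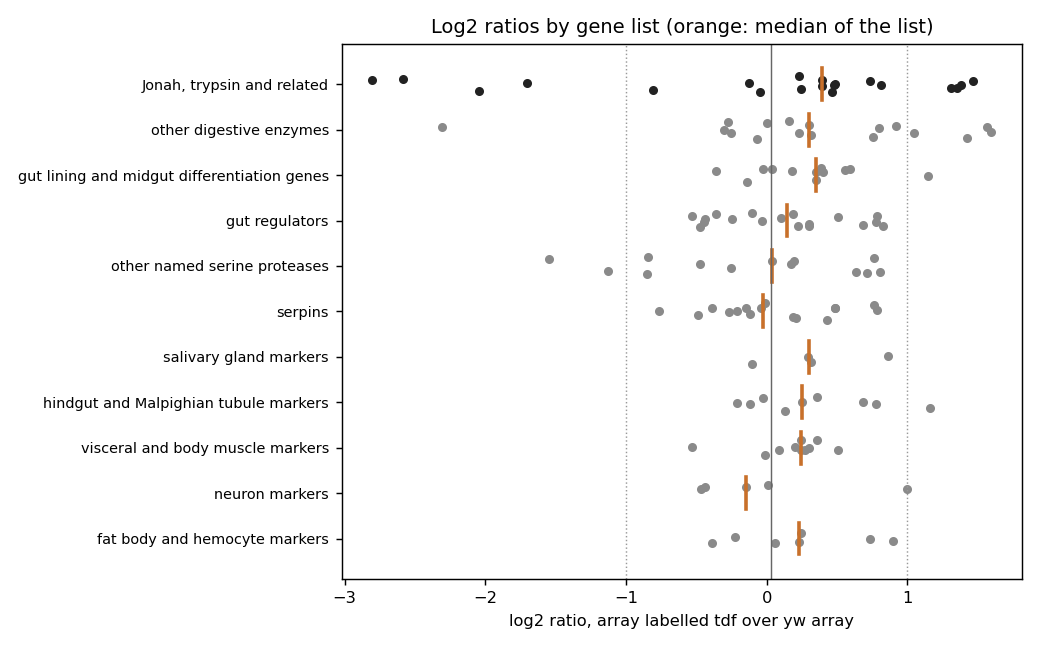
Log2 ratio (array labelled tdf over yw array) of each measured gene in the protease set (black) and in 10 other gene lists (grey), with list medians in orange, the median of all measured genes as a solid line and the 2-fold limit as dotted lines. The proteases reach from -2.80 to 1.47, while the 18 gut regulators lie between -0.53 and 0.83.

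Marker genes of other tissues are given as a measure of tissue make-up. Whether each of them, such as DptB in the tubule list, marks its tissue in these embryos was not checked. Several, such as byn, drm, bap, bin, org-1 and sage, are also among the gut regulators. Of the 4 measured salivary gland, 10 muscle, 5 neuron and 7 fat body and hemocyte markers none reached the 2-fold limit, with median log2 ratios of 0.30, 0.24, -0.15 and 0.23. The muscle median was 0.03 under quantile normalisation and 0.06 under loess. With the floor at 43.8, the hemocyte receptor gene NimC1 (13.2 and 182) was at least 4.14-fold higher, and the salivary gland gene fkh passed the limit too. The signals of NimC1 (182) and fkh (96.1) on the array labelled tdf lay within the range of the yeast controls there (71.2 to 223). The part of such background in these ratios was not tested. Of 9 hindgut and Malpighian tubule markers, with a median of 0.25, the homeobox gene ct alone passed the limit with the floor at 97.3 (84.3 and 218, at least 2.24-fold higher, and below the floor on both arrays with the floor at 237). After ct, the largest ratios in these lists were those of the neuronal RNA-binding protein gene fne (655 and 1305, log2 ratio 0.99, but 1.07 under quantile normalisation and 1.03 under loess), NimC1 (at least 0.90) and PH4alphaSG2 (0.86), a salivary gland marker that also flanks the Jon99F pair. The other named markers had log2 ratios of 0.31 (Sgs8), at least 0.29 (eyg) and -0.10 (sage) in the salivary gland, -0.53 (org-1), 0.50 (bap), 0.36 (Mlc1), 0.30 (bin) and 0.27 (Mlc2) in muscle (Mlc2 -0.02 under loess, Mlc1 0.01 under quantile normalisation), -0.47 (Rbp9), -0.44 (nSyb) and -0.15 (elav) in neurons, at least 0.73 (Lsp2), -0.39 (Fbp1) and 0.24 (Col4a1) in fat body and hemocytes, and 0.36 (DptB) in the tubule list. Summed over each list, the signal went from 1101 (yw) to 1650 (array labelled tdf) for salivary gland markers, from 1115 to 1498 for hindgut and tubule markers, from 102617 to 121071 for muscle, from 1738 to 2268 for neurons (from 1083 to 962 without fne) and from 15667 to 17852 for fat body and hemocytes. Such a sum takes in all listed genes read alone by a probe set, those below the floor included, and follows its brightest probe sets. The part of tissue make-up in the protease ratios was not tested.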

How the data were processed

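The authors deposited linear MAS5 intensities, per the submitters' processing notes, with no version or settings stated. MAS5 subtracts mismatch signal, so dim probe sets are noisy. Of 14010 probe sets, 44 were controls, 12443 named 1 gene, 327 several and 1196 none in the platform annotation. Symbols of 12394 were updated by gene ID to the RefSeq gene table (Release 6 plus ISO1 MT), which also gave gene order. The arrays name no build, so no coordinates are given, and sequences were not used here. Where several probe sets read a gene, the one with the highest mean signal was taken, but each protease read alone had 1. All 20 measured proteases are named, and in other lists the up to 4 genes with the largest ratio in size and the brightest. The members and lists were chosen with earlier results of these data known. The planned list of genes by protein motif was not analysed here. Floor, ratio and counts were tested on simulated arrays with shifts of bright genes well past the 2-fold limit. No shift was simulated in dim genes or near that limit. Alternatives were centring, quantile normalisation, loess (span 0.3), a floor at the 25th or 60th percentile, averaged probe sets, plain probe sets only, and limits of 1.5-fold and 3-fold. Python 3.11.15, numpy 2.4.6, pandas 2.3.3, statsmodels 0.14.6 and matplotlib 3.10.9 were used. The number of arrays, 1 per genotype, limits the precision.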

Additional observations from a re-analysis of the deposited data

Results flagged for a closer look

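Yeast control probe sets entered no comparison of genotypes, and 3 of the 4 were below the floor of 97.3 on the yw array and above it on the array labelled tdf, where their signals were 194.8 (WBP1), 157.0 (URA3) and 223.2 (RIP1). Their part in the dim protease signals on that array was not tested.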

How the results depend on the processing

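Under centring, quantile normalisation, loess and averaging of probe sets, 4 proteases were at least 2-fold higher and 4 lower, as in the values reported. With plain probe sets only, 3 were lower, since Jon99Fii has no plain probe set. Of the 8 genes at least 2-fold apart, kappaTry alone went under that limit in any scaling, floor or choice of probe sets, at a log2 ratio of at least 0.76 with the floor at the 60th percentile. That floor left 13 proteases measured, 3 of them at least 2-fold higher (23.1%) and 4 lower (30.8%). Over the whole array, 119 of 5310 measured genes were higher (2.24%) and 267 lower (5.03%). With the floor at the 25th percentile (a signal of 43.8), 6 of 27 measured proteases were higher (22.2%) and 5 lower (18.5%), Jon25Bi (log2 ratio at least 1.61), betaTry (at least 1.12) and Jon65Ai (-1.05) having passed the limit, against 607 (6.63%) and 683 (7.46%) of 9158 genes. This floor of 43.8 was below the signals of all yeast controls on the array labelled tdf (71.2 to 223). At 3-fold, 0 of the 20 measured proteases were higher and 4 lower, against 35 and 136 of the 7639 measured genes. The counts at 1.5-fold were 6 and 5 of 20, against 1005 and 1171 of 7639. The median log2 ratio of the measured proteases stayed between 0.28 and 0.40. Counting the shared Jon99Cii and Jon99Ciii probe sets as 1 further protease, chosen after the data were examined, gave 5 lower. No paired analysis was possible because each genotype has 1 array. Signals near the floor limit what can be said of 9 proteases.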
